A study of Mus musculus with 23 samples.

Results

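The genes of polyamine metabolism in mouse quadriceps, a thigh muscle, are described here. They are 10 genes taken by symbol (Odc1, Amd1, Amd2, Srm, Sms, Smox, Sat1, Paox, Azin1 and Oaz1) from the 55573 Ensembl gene IDs that the count table lists. All 10 were found and all 10 were among the 13049 genes expressed highly enough to be tested. RNA was sequenced from 23 C57Bl6 mice (C57BL/6J in the methods of the study) of 8 to 10 weeks, which differed by sex and by a pellet placed under the skin. Male_VEH (6 males) and Female_VEH (6 females) had a vehicle pellet of cholesterol, and Male_CORT (6 males) and Female_CORT (5 females) had a pellet with 50 mg corticosterone, the main glucocorticoid of mice. Tissue was taken on day 14 after a fast of 5 h. The question was how the muscle transcriptome responds to corticosterone in each sex. M or F in the name of a mouse gives its sex. Nothing in the sources used here says whether the muscles of males and females were processed together, so that sex and any such batch cannot be told apart.

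Polyamines (putrescine, spermidine and spermine) are small positively charged molecules that bind nucleic acids and are needed for growth and for translation. Ornithine decarboxylase makes putrescine, S-adenosylmethionine decarboxylase supplies the aminopropyl groups that the synthases add to make spermidine and spermine, and oxidases together with an acetyltransferase lead back to putrescine. Antizyme binds ornithine decarboxylase and sends it to the proteasome without ubiquitin, and antizyme inhibitor binds antizyme. Transcripts of the pathway are known to respond to androgens in several mouse tissues, among them kidney and muscle, and spermine oxidase has been linked to the maintenance of fiber size.

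The clearest difference was between the sexes. In vehicle-treated mice the genes of both decarboxylases (Odc1, Amd1 and its near copy Amd2) and of spermine oxidase (Smox) were 2.73-fold to 8.14-fold higher in males than in females. No vehicle-treated male overlapped with a vehicle-treated female for any of them (1.62% of all tested genes lay higher in every such male). The 8.14-fold is that of Amd2, which had 16 to 25 counts in Female_VEH and whose reads are not firmly split from those of Amd1. Amd1 was 6.96-fold higher. Corticosterone lowered Amd1 4.22-fold, Smox 3.05-fold and Azin1 1.54-fold in males. Odc1 did not pass the test in males, and among corticosterone-treated mice it was still 3.43-fold higher in males. No polyamine gene passed edgeR's test in females, where 7 had an unadjusted p under 0.05, DESeq2 called 0 and limma-voom called Paox. At least 4821 of the 13049 tested genes also lay under that unadjusted 0.05 in females, the rank of Oaz1 (edgeR p 0.0428). Of all tested genes 0.958% passed between vehicle-treated males and females, 26.3% between the treatments in males, 13.4% between the treatments in females and 23.3% between the sexes with corticosterone.

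Counts on genes lay between 20904150 and 21984477 per mouse with a median of 21312841. Levels are given as CPM, counts divided by the scaled library size, and comparisons as the log2 fold change (log2FC) with its standard error (SE) from edgeR's quasi-likelihood test in 1 fit over all 23 mice, with Benjamini-Hochberg adjustment over 13049 genes and a threshold of 0.01. The muscle markers Acta1, Ckm, Mb, Tnnt3, Myh4 and Myh1 summed to 67278 to 178616 CPM in every mouse, with the lowest sum in F10. The 7 adipocyte markers (among them Adipoq and Plin1, none at 0 in all mice of a group) summed to at most 2595 CPM outside Female_CORT, where F2 had 3633 CPM, F4 1091, F6 6899, F8 270 and F10 3272. The 6 hepatocyte markers (among them Alb and Apoa1) were above 1000 CPM in 5 mice (F6, F10, M8, M9 and M12) and reached 2350 in F10 and 2362 in M8. These are called mice with much hepatocyte RNA only in comparison with the other mice, which had 15.2 to 297 CPM. All these sums were far below those of the muscle markers. Fibroblast markers summed to 321 to 487 CPM in Male_CORT and to 504 to 1692 CPM in the other groups, and erythrocyte markers were higher with corticosterone in both sexes on the whole (189 to 674 CPM against 84.9 to 398). The type 2A fiber myosin Myh2 lay between 18.2 and 4622 CPM and the slow fiber markers between 37.7 and 4993 CPM, with wide overlap of the groups. The muscle is bulk tissue, in which fewer cells of a type and less RNA per cell cannot be told apart.

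Odc1 (ENSMUSG00000011179, mm10 chr12:17544794-17551505) encodes ornithine decarboxylase, the entry point and classical rate-limiting enzyme of the pathway. It lay between 178 and 267 CPM in Male_VEH with a median of 206, and between 56.0 and 104 CPM in Female_VEH with a median of 79.2. In Male_CORT it lay between 120 and 314 CPM with a median of 169, and in Female_CORT F2 had 39.9 CPM, F4 91.0, F6 59.9, F8 44.4 and F10 43.0. Every male was above every female of either treatment, and within a sex the vehicle and corticosterone groups overlapped. M8, the mouse with the highest Odc1, was 1 of the 5 mice with much hepatocyte RNA. The others had 245 CPM (M9), 144 (M12), 59.9 (F6) and 43.0 (F10), each within the range of the other mice of its group.

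The sex difference of Odc1 was a log2FC of 1.45 (SE 0.23) in vehicle-treated mice, with an adjusted p of 0.000484. Among corticosterone-treated mice it was 1.78 (SE 0.24), with an adjusted p of 4.60e-05. The response to corticosterone did not pass in males (log2FC -0.18, SE 0.22, adjusted p 0.539) or in females (log2FC -0.51, SE 0.23, adjusted p 0.112). The difference between these responses was 0.33 (adjusted p 0.498), so the sex difference of Odc1 stood in both treatments with no shift that the test could detect.

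Amd1 (ENSMUSG00000075232, mm10 chr10:40287458-40302186, minus strand) encodes S-adenosylmethionine decarboxylase. It lay between 858 and 1634 CPM in Male_VEH with a median of 1215, and between 136 and 221 CPM in Female_VEH with a median of 173. With corticosterone it lay between 180 and 555 CPM in males with a median of 259. In Female_CORT F2 had 121 CPM, F4 132, F6 106, F8 136 and F10 78.8. None of the groups compared overlapped: males were above females within each treatment, and corticosterone-treated mice were below vehicle-treated mice within each sex, the highest Female_CORT value falling just short of the lowest Female_VEH value.

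Amd1 was 6.96-fold higher in males than in females with vehicle (log2FC 2.80, SE 0.25, adjusted p 2.66e-07), and by p-value it was number 9 of the 13049 genes in that comparison. In males corticosterone lowered it by a log2FC of -2.08 (SE 0.25, adjusted p 1.56e-06). In females its log2FC was -0.62 (SE 0.25, adjusted p 0.0692), which does not pass. Among corticosterone-treated mice a sex difference of 2.54-fold was left (log2FC 1.34, SE 0.26, adjusted p 0.000572). Without the 5 mice with much hepatocyte RNA its log2FC was 1.36 with a larger SE of 0.31, and it was not past the threshold (adjusted p 0.0130). That fit had fewer mice in both groups.

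The male and female responses of Amd1 differed by a log2FC of -1.45 (SE 0.34), and this interaction had an adjusted p of 0.0167, on the far side of the threshold. It passed with DESeq2 (adjusted p 0.00149), with limma-voom and sample quality weights (0.00624) and without M2 (log2FC -1.74, adjusted p 0.00540). M2 had 555 CPM, the highest Amd1 value of the corticosterone-treated males, and the next was 300. Over all alternatives the adjusted p ran from 0.00149 to 0.111.

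Amd2 (ENSMUSG00000063953, mm10 chr10:35708675-35711892, minus strand) is a near copy of Amd1. The longest reading frames of both genes have 1005 bases and differ at 1 base, an identity of 99.9%, and 72.9% of the 100-base windows of Amd2 also occur in Amd1. Reads that fit both genes were not counted for either, so the count of Amd2 rests on the rest of its sequence, and the split of reads between the copies is uncertain. Amd2 took 0.368% to 0.759% of the summed counts of both genes in most mice, and more in M12 (0.943%), M2 (1.59%), F6 (2.16%) and F2 (2.46%).

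Amd2 was low throughout, between 4.15 and 10.1 CPM in Male_VEH (median 7.58) and between 0.757 and 1.22 CPM in Female_VEH (median 0.834). In Male_CORT M2 had 8.95 CPM and the other 5 males 1.14 to 1.85 CPM. In Female_CORT F2 had 3.05 CPM, F4 1.01, F6 2.34, F8 0.541 and F10 0.437. Vehicle-treated males were above all vehicle-treated females, whereas the other groups overlapped.

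With vehicle Amd2 was 8.14-fold higher in males (log2FC 3.02, SE 0.51, adjusted p 0.00101). The male response of -1.41 (SE 0.47) had an adjusted p of 0.0199, and without M2 it was -2.24 with an adjusted p of 0.000104. With DESeq2 and limma-voom the male response also passed (adjusted p 0.00868 and 0.000575). The interaction of Amd2 was -2.12 (SE 0.70, adjusted p 0.0499) and passed without M2 (-2.95, adjusted p 0.00662). When the counts of Amd1 and Amd2 were added before the fit, the sum had a log2FC of 2.80 between the sexes with vehicle, -2.07 in males and -0.61 in females, and passed in the same comparisons as Amd1.

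**Figure D1:**
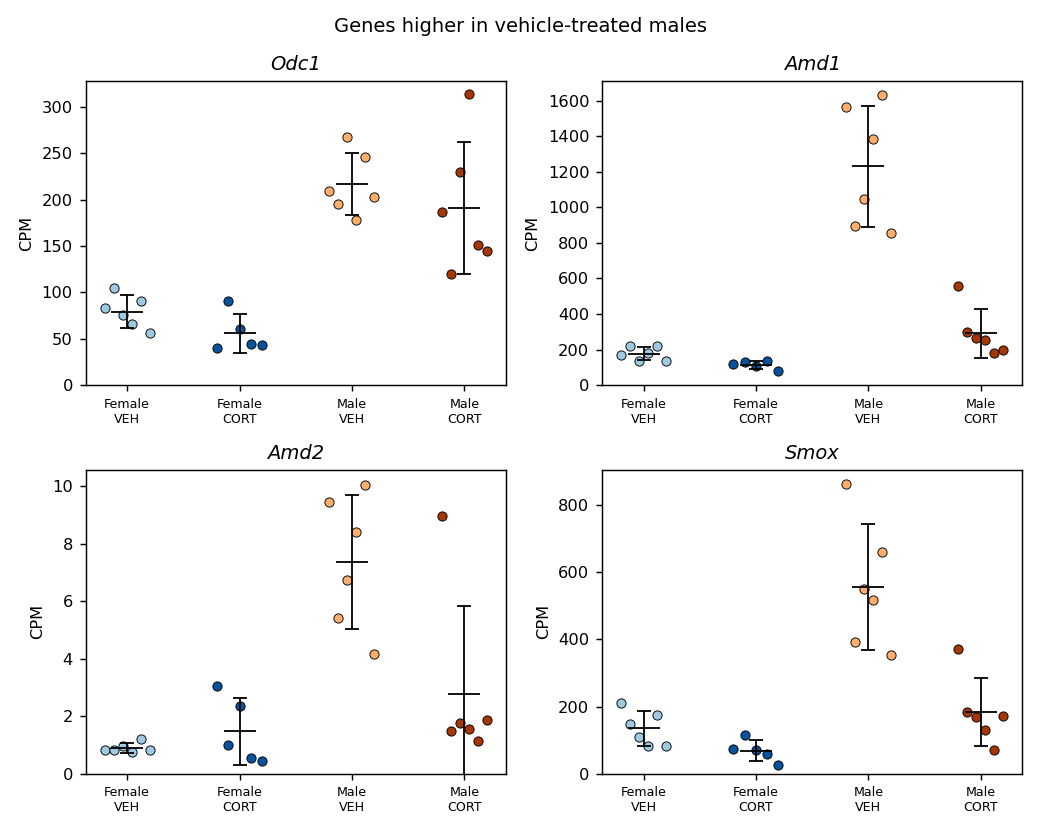
CPM of Odc1, Amd1, Amd2 and Smox on linear axes, 1 point for each of the 23 mice, with the mean and SD of each group as bars. For all 4 genes each Male_VEH mouse lies above each Female_VEH mouse, and M2 is the highest point of Male_CORT for Amd1, Amd2 and Smox (555, 8.95 and 371 CPM).

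The promoters of the 4 genes that differed between vehicle-treated males and females are shown so that these genes can be compared at their start sites. Each window runs from 250 bases before to 50 bases after the start site in RefSeq on GRCm38.p6 and is written 5′ to 3′ on the strand of the gene, Odc1 at chr12:17544623-17544922, Amd1 at chr10:40302139-40302438 (minus strand), Amd2 at chr10:35711842-35712141 (minus strand) and Smox at chr2:131491612-131491911. Capitals mark the 48 bases that Amd1 and Amd2 have in common.
Odc1: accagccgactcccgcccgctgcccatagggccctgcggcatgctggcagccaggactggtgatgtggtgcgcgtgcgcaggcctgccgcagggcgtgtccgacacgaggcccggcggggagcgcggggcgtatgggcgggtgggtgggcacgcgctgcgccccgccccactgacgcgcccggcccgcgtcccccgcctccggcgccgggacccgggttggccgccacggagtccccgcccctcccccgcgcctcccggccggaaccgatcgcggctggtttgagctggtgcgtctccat
Amd1: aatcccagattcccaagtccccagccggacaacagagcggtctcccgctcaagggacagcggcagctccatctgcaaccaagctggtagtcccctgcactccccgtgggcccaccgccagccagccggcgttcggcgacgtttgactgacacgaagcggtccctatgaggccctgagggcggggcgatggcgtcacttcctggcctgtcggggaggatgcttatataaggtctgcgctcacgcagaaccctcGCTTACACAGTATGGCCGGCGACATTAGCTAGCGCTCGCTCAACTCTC
Amd2: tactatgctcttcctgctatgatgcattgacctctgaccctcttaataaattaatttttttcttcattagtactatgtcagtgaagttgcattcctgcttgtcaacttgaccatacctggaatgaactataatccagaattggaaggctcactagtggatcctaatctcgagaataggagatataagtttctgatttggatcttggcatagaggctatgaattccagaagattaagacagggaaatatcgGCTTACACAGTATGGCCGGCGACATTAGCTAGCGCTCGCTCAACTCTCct
Smox: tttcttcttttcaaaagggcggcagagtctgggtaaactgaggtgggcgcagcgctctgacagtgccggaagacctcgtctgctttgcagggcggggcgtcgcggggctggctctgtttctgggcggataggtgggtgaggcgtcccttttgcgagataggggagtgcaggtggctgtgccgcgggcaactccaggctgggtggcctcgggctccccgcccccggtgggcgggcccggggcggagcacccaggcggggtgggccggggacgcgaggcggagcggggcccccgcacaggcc

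The shared stretch begins 2 bases after the start site in Amd1 and at the start site in Amd2, and the bases before it differ, so the copies are alike in transcribed sequence and not upstream. GC content was 78.0% in the Odc1 window, 71.0% in that of Smox, 63.0% in that of Amd1 and 40.7% in that of Amd2. The 6-base sequence AGAACA, which reads TGTTCT on the other strand and to which the glucocorticoid receptor binds within a longer element, was looked for on both strands, as was its palindrome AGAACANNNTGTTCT, which holds it on each side. The E-box CACGTG, bound by MYC with MAX, was looked for as well. None of these occurred in the 4 windows. Of 32851 promoter windows of this length, 19.0% held the 6-base sequence, 7.15% the E-box and 0.00913% the palindrome. Among the 8 polyamine genes with a window, Sms held an E-box at 196 bases and Sat1 a TGTTCT at 191 bases before the start site.

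Srm and Sms encode spermidine synthase and spermine synthase, which add the aminopropyl groups. Srm lay between 7.77 and 16.0 CPM over all mice, with group means from 8.97 ± 0.937 CPM (SD, n = 6) in Male_VEH to 12.3 CPM in Female_CORT (n = 5, range 8.56 to 16.0), and passed in no comparison. Sms (ENSMUSG00000071708, mm10 chrX:157443855-157492287, minus strand) lay between 108 and 146 CPM in Male_VEH (median 111), between 110 and 198 in Male_CORT (median 152) and between 85.8 and 136 in Female_VEH (median 97.9). In Female_CORT F2 had 104 CPM, F4 76.2, F6 76.2, F8 75.1 and F10 40.3. All corticosterone-treated males were above all corticosterone-treated females, while vehicle-treated males and females overlapped. F10, with the lowest Sms, also had the lowest sum of muscle markers and much hepatocyte RNA. M4 and M2, with the highest Sms (198 and 197 CPM), had the highest sums of muscle markers (178616 and 175645 CPM). F4, however, had 143982 CPM of muscle markers beside 76.2 CPM of Sms. The part of muscle RNA in the values of Sms was not tested.

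Sms was 2.09-fold higher in males than in females with corticosterone (log2FC 1.06, SE 0.20, adjusted p 0.000478), and it also passed without F10 and M8 and without the 5 mice with much hepatocyte RNA. With vehicle its log2FC between the sexes was 0.21. The responses pointed in opposite directions, 0.36 (SE 0.18, adjusted p 0.127) in males and -0.49 (SE 0.19, adjusted p 0.0641) in females. Neither passed, and nor did their difference of 0.85 (SE 0.27, adjusted p 0.0415).

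Smox (ENSMUSG00000027333, mm10 chr2:131491496-131525922) encodes spermine oxidase, which converts spermine to spermidine. It lay between 352 and 863 CPM in Male_VEH with a median of 534, and between 81.3 and 211 CPM in Female_VEH with a median of 130. In Male_CORT it lay between 71.8 and 371 CPM with a median of 170, and in Female_CORT F2 had 74.2 CPM, F4 115, F6 69.2, F8 57.6 and F10 26.5. Vehicle-treated males were above all vehicle-treated females, and corticosterone-treated males were below the vehicle-treated ones except that M2 (371 CPM) was above M11 (352 CPM).

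Smox was 4.13-fold higher in males with vehicle (log2FC 2.05, SE 0.36, adjusted p 0.00182) and fell with corticosterone in males by a log2FC of -1.61 (SE 0.36, adjusted p 0.00117). Its log2FC in females was -0.98 (SE 0.37, adjusted p 0.0554), and the responses did not differ beyond the threshold (-0.63, adjusted p 0.399). Among corticosterone-treated mice it was 2.67-fold higher in males (log2FC 1.42, SE 0.38, adjusted p 0.00575). This last call was lost when F2, F6, F8, F10, M2 or M4 was left out (adjusted p 0.0111, 0.0133, 0.0119, 0.0170, 0.0197 and 0.0104). The male response missed the threshold without the 5 mice with much hepatocyte RNA (log2FC -1.42, SE 0.41, adjusted p 0.0140).

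Sat1 encodes the acetyltransferase that marks spermidine and spermine for oxidation or export, and Paox the oxidase that acts on the acetylated forms. Sat1 passed in no comparison, with group means of 28.4 ± 5.24 CPM in Male_VEH, 31.8 ± 5.80 in Male_CORT and 36.3 ± 5.29 in Female_VEH (SD, n = 6 each) and 35.6 ± 3.44 in Female_CORT (SD, n = 5). Paox (ENSMUSG00000025464, mm10 chr7:140115799-140137224), which overlaps Echs1 on the other strand, lay between 3.63 and 5.61 CPM in Male_VEH (median 4.88), between 2.74 and 4.37 in Male_CORT (median 3.86) and between 3.45 and 6.69 in Female_VEH (mean 4.93 ± 1.14, SD, n = 6). In Female_CORT F2 had 9.14 CPM, F4 5.39, F6 12.4, F8 3.74 and F10 8.46. F2, F6 and F10, which were above all vehicle-treated females, were the mice with the most adipocyte RNA, and F8, the lowest, had the least.

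With corticosterone Paox was 2.10-fold lower in males than in females (log2FC -1.07, SE 0.23, adjusted p 0.00123). This call was lost without F10 and M8 (log2FC -0.94, SE 0.25, adjusted p 0.0115) and without the 5 mice with much hepatocyte RNA (log2FC -0.55, SE 0.25, adjusted p 0.169). The female response of 0.67 (SE 0.23) had an adjusted p of 0.0323 and passed without F8 (0.84, adjusted p 0.00291) and with limma-voom (0.00397). The male response was -0.35 (adjusted p 0.215), and the interaction of -1.02 (SE 0.32, adjusted p 0.0396) passed without F8 (adjusted p 0.00572) and with limma-voom (0.00997). The part of adipocyte RNA in these values was not tested.

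Azin1 encodes antizyme inhibitor, which frees ornithine decarboxylase from antizyme, and Oaz1 encodes the main antizyme. Azin1 (ENSMUSG00000037458, mm10 chr15:38487427-38519266, minus strand) lay between 36.8 and 48.6 CPM in Male_VEH (median 40.5) and between 19.6 and 32.5 CPM in Male_CORT (median 27.7). Vehicle-treated females lay between 36.1 and 60.1 CPM (median 39.3), and in Female_CORT F2 had 34.7 CPM, F4 34.9, F6 37.4, F8 36.4 and F10 44.4. Corticosterone-treated males were below every other mouse of either sex.

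The fall of Azin1 in males was a log2FC of -0.62 (SE 0.13, adjusted p 0.000798). It was not past the threshold without the 5 mice with much hepatocyte RNA (log2FC -0.58, SE 0.16, adjusted p 0.0122). In females the log2FC was -0.24 (adjusted p 0.201), and the responses did not differ beyond the threshold (-0.38, adjusted p 0.171). With corticosterone Azin1 was 1.39-fold lower in males than in females (log2FC -0.47, SE 0.14, adjusted p 0.00960), a value at the edge of the threshold that was lost in 15 of the 23 fits that each left out 1 mouse (adjusted p up to 0.0515), and also with filterByExpr (0.0125), no gene filter (0.0373), the median of ratios (0.0127) and limma-voom (0.0191). The mice whose omission lost the call were F2, F4, F6, F7, F8, F10, M1, M3, M4, M6, M7, M8, M9, M11 and M12.

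Oaz1 was among the most abundant polyamine transcripts and varied little, with means of 345 ± 40.7 CPM in Male_VEH, 367 ± 35.8 in Male_CORT and 314 ± 31.8 in Female_VEH (SD, n = 6 each) and 267 ± 42.4 in Female_CORT (SD, n = 5). Only the sex difference with corticosterone passed, 1.38-fold higher in males (log2FC 0.46, SE 0.11, adjusted p 0.00265). It was lost without F10 and M8 (log2FC 0.43, SE 0.12, adjusted p 0.0170) and without the 5 mice with much hepatocyte RNA (log2FC 0.39, SE 0.14, adjusted p 0.0827). With vehicle the groups of Oaz1 overlapped.

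**Figure D2:**
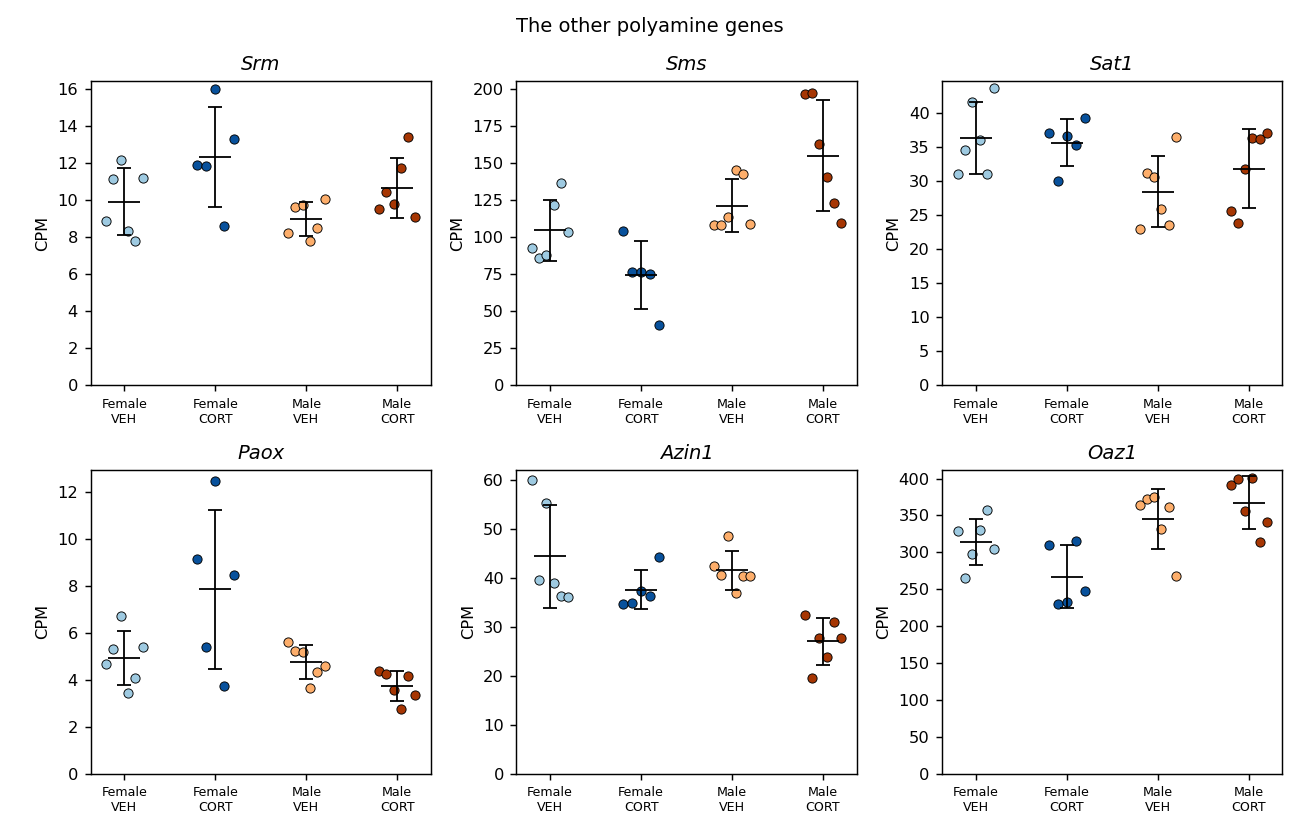
CPM of Srm, Sms, Sat1, Paox, Azin1 and Oaz1 on linear axes, 1 point for each of the 23 mice, with the mean and SD of each group as bars. Male_CORT lies lowest for Azin1, Female_CORT lies lowest for Sms apart from an overlap with Female_VEH, and Paox spreads in Female_CORT from 3.74 to 12.4 CPM.

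Counted over all polyamine genes, 4 of 10 passed between vehicle-treated males and females, all higher in males. Higher in males were 0.690% of all tested genes. Amd1 and Amd2 are near copies with an uncertain split of reads, so they are not independent in this count. The call held for all 4 in each alternative, with Amd1 and Amd2 counted as 1 gene where their counts were added, and by p-value Odc1 was number 50, Amd2 number 68 and Smox number 77 of the 13049 genes.

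Among corticosterone-treated mice 7 of 10 passed. Odc1, Amd1, Sms, Smox and Oaz1 were higher in males, and Paox and Azin1 lower. Of all tested genes 9.31% were higher and 14.01% lower. Odc1, Amd1 and Sms lay above in every male (6.87% of all genes did) and Azin1 below (5.55%). Only 3 passed without F10 and M8 (Odc1, Amd1 and Sms), and 2 without the 5 mice with much hepatocyte RNA (Odc1 and Sms).

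The male response passed for 3 of 10 genes, all lower, where 26.3% of all genes passed in either direction and 13.1% were lower. Amd1 and Azin1 lay below in every corticosterone-treated male (11.1% of all genes did). A share of 3 in 10 is near this background. Without the 5 mice with much hepatocyte RNA, Amd1 alone passed. The female response passed for 0 of 10 in edgeR, with 7 at an unadjusted p under 0.05, 0 in DESeq2 and 1 in limma-voom (Paox), tools that each called 18.8% of all genes. At least 4821 of all 13049 genes were under the unadjusted 0.05 in edgeR there. Amd1 lay below in every corticosterone-treated female, as did 4.34% of all genes. The interaction passed for 0 of 10 in edgeR, which called 0.690% of all genes, with 5 at an unadjusted p under 0.05. At least 3951 of all 13049 genes were under that unadjusted 0.05, the rank of Oaz1 (edgeR p 0.0428). DESeq2 called 1 (Amd1) and 6.87% of all genes, and limma-voom 2 (Amd1 and Paox) and 5.31% of all genes. The median log2FC of the 10 genes was -0.27 in males and -0.24 in females, against -0.02 and 0.04 over all tested genes, and between the sexes it was 0.17 with vehicle and 0.68 with corticosterone, against -0.00 and -0.03.

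**Figure D3:**
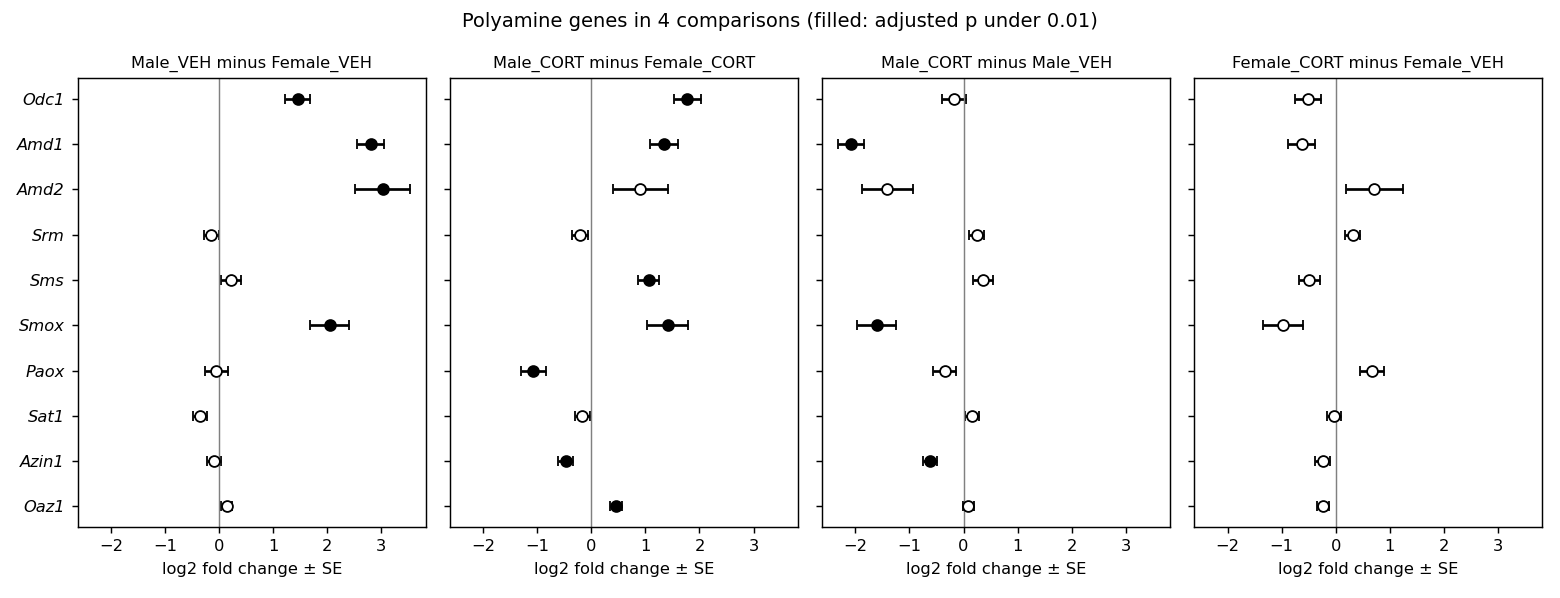
Log2FC with its SE for the 10 polyamine genes in 4 comparisons, the male and female response to corticosterone and male minus female with vehicle and with corticosterone. Filled points passed the adjusted p of 0.01. The largest values are Amd2 and Amd1 with vehicle (3.02 and 2.80), and no point of the female response is filled.

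Levels of different genes were compared as CPM per kb of exon. In Male_VEH Amd1 was highest with a mean of 348 CPM per kb, followed by Smox with 143, Oaz1 with 135 and Odc1 with 63.6. Sms, Sat1, Azin1, Srm, Amd2 and Paox came below, the last with 0.970 CPM per kb. Of these neighbours only Smox and Oaz1, and Azin1 and Srm, overlapped between mice. In the other 3 groups Oaz1 was highest, with 144 CPM per kb in Male_CORT, 123 in Female_VEH and 104 in Female_CORT, and Amd1 came next with 82.3, 49.9 and 32.4. In Male_CORT Oaz1 and Amd1 overlapped between mice, whereas in both female groups Oaz1 stood above. The order of Amd1 and Oaz1 in vehicle-treated males was thus the reverse of that in the other groups. Of the 100-base windows of Amd1, 64.2% also occur in Amd2, and reads that fit both genes were not counted. The level of Amd1 per kb, taken over its full exon length, may thus be too low. Its place below Oaz1 in the other groups is therefore not firm. Between the lower neighbours from Amd1 to Sat1 in Female_VEH and from Amd1 to Azin1 in Female_CORT the values overlapped, so their order is not firm.

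The related genes were 56 genes in 6 lists, of which 46 were tested. With vehicle 0 of 46 differed between the sexes in edgeR, with 11 at an unadjusted p under 0.05, 3 passing in DESeq2 and 0 in limma-voom. How many of all tested genes lay under the unadjusted 0.05 with vehicle was not counted. A count of 0 of 46 is near the background of 0.958%, and DESeq2 called 2.18% and limma-voom 1.43% of all tested genes in this comparison. With corticosterone 14 of 46 passed in males (9 higher, 5 lower) and 17 in females (12 higher, 5 lower), where 13.2% and 7.40% of all tested genes were higher and 13.1% and 6.0% lower. The female count was 10 without F6, 11 without F2, 7 with each sex fitted alone and 5 without the 5 mice with much hepatocyte RNA. Between the sexes 12 of 46 passed with corticosterone (6 higher and 6 lower in males). That is near the 23.3% of all tested genes that passed there, 9.31% higher and 14.01% lower. The interaction passed for 0 of 46 in edgeR, with 17 at an unadjusted p under 0.05, 5 in DESeq2 and 6 in limma-voom, tools that called 6.87% and 5.31% of all tested genes. At least 3951 of the 13049 tested genes had an unadjusted interaction p under 0.05 in edgeR.

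Of 7 tested genes for arginine and ornithine supply, 2 rose in each sex and none fell. Of all tested genes 13.2% rose in males and 7.40% in females. Oat encodes ornithine aminotransferase, which links ornithine to glutamate. Its mean rose from 231 ± 18.4 in Male_VEH to 693 ± 64.2 CPM in Male_CORT (SD, n = 6 each; log2FC 1.58, SE 0.11, adjusted p 7.15e-09) and from 254 ± 39.8 in Female_VEH to 448 ± 80.7 CPM in Female_CORT (SD, n = 6 and 5; log2FC 0.82, SE 0.12, adjusted p 5.18e-05). The groups of Oat did not overlap in either sex, and with corticosterone it was higher in males (log2FC 0.63, adjusted p 0.000507). Slc7a2, an importer of arginine, lysine and ornithine, rose in males (1.43, SE 0.27, adjusted p 0.000279) and in females (1.03, SE 0.28, adjusted p 0.00953). The female value is at the edge of the threshold. In females the groups of Slc7a2 overlapped, with 59.9 to 98.7 CPM in Female_VEH and 75.3 to 323 CPM in Female_CORT.

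The methionine cycle and the salvage of methylthioadenosine, the by-product of spermidine and spermine synthesis, had 18 tested genes. Of these 7 passed in males (2 higher, 5 lower) and 7 in females (4 higher, 3 lower). Of all tested genes 26.3% passed in males and 13.4% in females. Mat2a makes S-adenosylmethionine, the substrate of the decarboxylase encoded by Amd1. Its mean fell from 260 ± 23.8 in Male_VEH to 159 ± 18.3 CPM in Male_CORT (SD, n = 6 each; log2FC -0.71, SE 0.08, adjusted p 8.85e-07) and from 206 ± 12.6 in Female_VEH to 150 ± 11.1 CPM in Female_CORT (SD, n = 6 and 5; log2FC -0.46, SE 0.08, adjusted p 0.000587). The salvage enzymes Enoph1 (-0.67 and -0.50, adjusted p 1.84e-05 and 0.00136) and Adi1 (-0.54 and -0.49, adjusted p 0.000221 and 0.00209) fell in males and in females.

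Ahcy, which breaks down S-adenosylhomocysteine, rose in males (log2FC 1.33, adjusted p 2.24e-06) and in females (0.71, adjusted p 0.00395) and was higher in males with corticosterone (1.08, adjusted p 0.000145). Its highest values were likewise in mice with much hepatocyte RNA in 3 of the groups, with 45.0 CPM in M9, 118 in M8 and 48.7 in F6, and the groups did not overlap within either sex. Gnmt, a glycine methyltransferase abundant in liver, rose in males (2.47, adjusted p 0.00061) and in females (3.10, adjusted p 0.000363). Its highest values in 3 of the groups were in mice with much hepatocyte RNA, with 19.7 CPM in M9, 48.8 in M8 and 43.6 in F10, and the part of that RNA in the changes of Ahcy and Gnmt was not tested. Ahcyl2 rose in females (1.49, adjusted p 0.00038) and was lower in males than in females with corticosterone (-1.12, adjusted p 0.00212). In Female_CORT it ran from 24.4 CPM in F8 to 116 in F6, the mice with the least and the most adipocyte RNA, whose part was not tested.

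Of 7 tested genes for polyamine transport, 2 rose in males and 4 in females and none fell, where 13.2% and 7.40% of all tested genes rose. Slc3a2, the heavy chain of amino acid exchangers that has also been linked to polyamine export, rose in both sexes (0.67 and 0.65, adjusted p 2.28e-05 and 0.000171). Atp13a2, a lysosomal polyamine exporter, rose in males (0.30, adjusted p 0.00453) and was higher in males with corticosterone (0.42, adjusted p 0.000695). Slc22a3 (2.41, adjusted p 0.00635), Slc18b1 (1.16, adjusted p 0.00699) and Cav1 (0.97, adjusted p 0.00265) rose in females, and with corticosterone they were lower in males (-2.67, -1.98 and -1.15). For these 3 genes F6 was the highest and F8 the lowest of the corticosterone-treated females, from 0.787 to 15.7 CPM for Slc22a3, 2.71 to 17.7 for Slc18b1 and 174 to 581 for Cav1. F6 and F8 were also the mice with the most and the least adipocyte RNA, and its part was not tested.

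Of 2 other antizymes and acetyltransferases tested, Oaz2 passed, falling in females (-0.51, SE 0.10, adjusted p 0.00134). With corticosterone it was higher in males than in females (0.51, adjusted p 0.000893). Its means were 184 CPM in Male_VEH, 161 in Male_CORT, 160 in Female_VEH and 113 in Female_CORT. Of all tested genes 6.0% fell in females, and 9.31% were higher in males than in females with corticosterone. None of 4 genes for the hypusination of eIF5A, which uses spermidine, passed in males or in females in edgeR, 1 having an unadjusted p under 0.05 in each sex. Of all 13049 tested genes at least 4089 in males and 4821 in females lay under that unadjusted 0.05. DESeq2 and limma-voom each called 1 of the 4 in males (Dhps, higher) and 0 in females. In males they called 30.6% and 31.6% of all tested genes, and in females 18.8% each. Dhps, the first enzyme of that modification, was higher in males with corticosterone (0.39, adjusted p 0.000732).

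Of 8 tested genes of the list around the MYC network, 3 rose in males, and 2 rose and 1 fell in females. Of all tested genes 13.2% rose in males, and 7.40% rose and 6.0% fell in females. MYC is known to activate Odc1, and MAX is its partner. Max rose in males and females (0.66 and 0.33, adjusted p 1.72e-06 and 0.00491), as did Mxi1, which competes with MYC for MAX (0.98 and 0.45, adjusted p 6.68e-07 and 0.00508), and Mxd4, another such competitor, rose in males (0.38, adjusted p 0.00699). Mycn fell in females (-2.14, adjusted p 0.00344), from 2.68 ± 1.78 to 0.604 ± 0.279 CPM (SD, n = 6 and 5). With corticosterone Mxi1 was higher (0.42, adjusted p 0.00599) and Mxd1 lower (-0.59, adjusted p 0.00176) in males than in females.

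**Figure D4:**
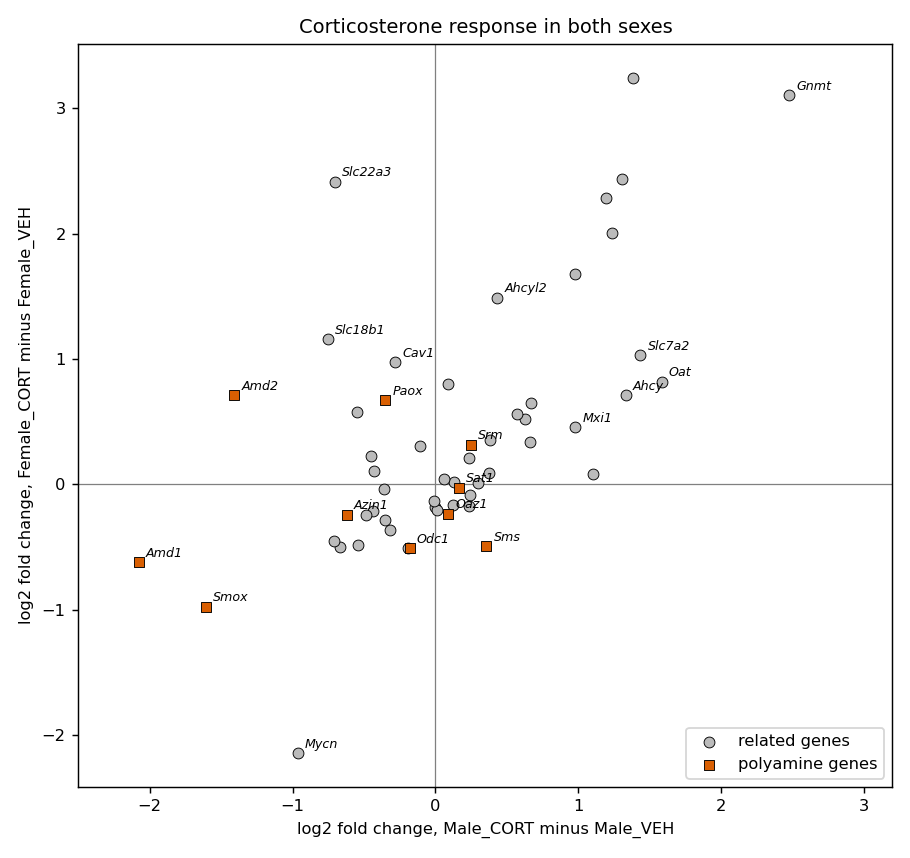
Log2FC with corticosterone in males against that in females for the 10 polyamine genes (squares) and the 46 related genes (circles). The axes share no samples. Amd1 lies at -2.08 in males and -0.62 in females, and Oat at 1.58 and 0.82.

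Genes whose log2 CPM followed a polyamine gene most closely over the 23 mice are given as a description, since the mice share their groups. Odc1 was followed by Ly6g6d (Pearson r 0.88), the Y-linked Kdm5d (0.88) and the autophagy receptor gene Sqstm1 (0.88). With group means removed these values were 0.41, 0.23 and 0.59. Ly6g6d had only 0 to 5 counts in Female_VEH, 0 to 4 in Female_CORT and 12 to 30 in Male_VEH. Amd1 was followed by Amd-ps3 (0.97), Samd10 (0.94) and Ntmt1 (0.91), with 0.83, 0.33 and 0.50 after removal of group means. Amd-ps3 is a processed pseudogene copy of Amd1, which can take reads of its parent gene. It had only 4 to 14 counts in Female_VEH, 2 to 8 in Female_CORT and 7 to 21 in Male_CORT. Smox was followed by Neto2 (0.93), Smtnl2 (0.93) and Amd-ps3 (0.91), with 0.72, 0.77 and 0.64 after removal of group means. For Smox, and for Amd1 with Amd-ps3, the likeness thus also stood within groups, while for Odc1 and Kdm5d it lay mostly between the sexes.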

How the data were processed

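Quadriceps RNA of 23 mice was sequenced as read pairs from a stranded library. The authors aligned them to mm10 with STAR 2.7.3a and counted pairs that fell on 1 gene by strand with HTSeq 0.12.4, and the deposited values are raw counts per gene and mouse. The 5 summary entries for pairs not assigned to a gene (10.7% to 15.3% of the pairs of a mouse) were left out. Positions came from GENCODE M21, and symbols from a separate list of gene names, which matched 55394 of the 55573 IDs. Groups follow the sex and treatment of the labels. Counts of any 2 replicates differed beyond sampling noise (chi-square over degrees of freedom at least 15.0), so none was a repeated library. The labels number the mice without naming litters or cages.

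The study's filter, more than 20 normalized counts in 4 or more mice of any group, left 13049 genes. The test was edgeR's quasi-likelihood test (edgeR 4.0.16, R 4.3.3) with TMM scaling and a mean for each of the 4 groups, Benjamini-Hochberg adjustment over these genes and a threshold of 0.01. The study's methods name DESeq2, which served as an alternative (DESeq2 1.42.0), as did limma-voom with sample quality weights (limma 3.58.1), filterByExpr, no filter, the median of ratios, Amd1 and Amd2 counts added, each sex fitted alone, a replicate block, and 23 fits that each left out 1 mouse. Leaving out F10 and M8, or the 5 mice with over 1000 CPM of hepatocyte markers, was chosen after seeing the data. The latter took F6 and F10 from Female_CORT, M8 and M12 from Male_CORT and M9 from Male_VEH. A call can be lost there through the smaller groups alone. The script was tested on simulated counts. CPM use scaled library sizes, and log2 CPM a prior count of 1. Likeness is Pearson's r of log2 CPM over 23 mice, the 3 closest tested genes being named.

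The polyamine genes and all lists were chosen with earlier results of these data known. All 10 polyamine genes are named in each comparison, and of each related list at most the 4 genes with the smallest p among those that passed in a comparison. Some genes of the lists are not reported here. Promoters came from RefSeq on GRCm38.p6, which had a window for 8 of the 10 genes.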

Additional observations from a re-analysis of the deposited data

Results flagged for a closer look

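In 40 sets of values, 10 polyamine genes in each of 4 groups, a mouse was looked for that stood far from the nearest other mouse of its group relative to the range of the group (Dixon's 95% critical value). This singled out 4 values, and chance singles out about 1 in 20 sets. In Male_CORT M2 stood above the other 5 mice for Amd1 (555 CPM), Amd2 (8.95 CPM) and Smox (371 CPM). In Female_CORT F10 stood above the other 4 mice for Azin1 (44.4 CPM). The 3 values of M2 come from 1 library, and for Odc1 M2 (186 CPM) lay within the range of its group.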

How the results depend on the processing

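Over the alternatives, 1538 of the comparisons of single genes kept their direction and their side of the threshold, 36 lost a call, 12 gained one and 9 changed sign without a call. Of the counts of genes that passed, 293 stayed within 1.5 times and 27 did not. The 4 calls between vehicle-treated males and females held throughout for the polyamine genes. The count for the male response was 1 without F6, F10, M8, M9 and M12, and 3 to 4 when 1 mouse was left out (4 without M2). The count for the female response was 1 with limma-voom and 0 to 1 when 1 mouse was left out (1 without F8). Between the sexes with corticosterone it was 3 without F10 and M8, 2 without the 5 mice, and 5 to 7 when 1 mouse was left out. The interaction count was 1 with DESeq2, 2 with limma-voom, and 0 to 2 when 1 mouse was left out (1 without F8, 2 without M2). The causes of these changes were not tested.

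For the related genes, the female response passed for 7 with each sex fitted alone, for 5 without the 5 mice and for 10 (without F6) to 18 (without F8) when 1 mouse was left out, with 11 without F2. With vehicle 3 passed between the sexes with DESeq2, and 0 to 2 when 1 mouse was left out (2 without M2, 1 without F9). Between the sexes with corticosterone 3 passed without the 5 mice. The interaction passed for 5 with DESeq2, 6 with limma-voom, 1 with the median of ratios, and 0 to 7 when 1 mouse was left out (7 without F8, 4 without F3 or F4, 1 without F2 or F5).

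The log2FC that changed sign were all near 0. Without the 5 mice, Srm was 0.0341 between the sexes with corticosterone and 0.17 for the interaction. When 1 mouse was left out, Sat1 ranged from -0.0861 to 0.0323 in females, Paox from -0.14 to 0.0547 and Azin1 from -0.15 to 0.00857 between the sexes with vehicle, and Srm from -0.17 to 0.0653 for the interaction.

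The groups share replicate numbers, and the sources do not say whether these mark pairs. Over 11 pairs of same-numbered mice the correlation of deviations from the group means ran from -0.38 to 0.48, was over 0.1 for 7 pairs, and was best with the own number in 4. It was positive for every vehicle pair (0.085 to 0.48) and ran from -0.38 to 0.24 with corticosterone. Slow fiber markers summed to 2979 to 4993 CPM in F3, M3, F5 and M5. In the other vehicle-treated mice they reached at most 161 CPM. Whether same-numbered vehicle mice were handled together was not tested. With a replicate block, 4 polyamine genes passed between the sexes with vehicle, 7 with corticosterone and 1 for the interaction (Sms), and of the related genes 1, 9 and 0. The SE of the sex difference with vehicle went from 0.36 to 0.20 for Smox and from 0.51 to 0.26 for Amd2 with the block. For Amd1 it went from 0.25 to 0.18, and for Odc1 from 0.23 to 0.24. Amd2 had 16 to 25 counts in Female_VEH, which limits its precision.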
